A study of Homo sapiens with 4 samples.

Results

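The TRIM genes encode the tripartite motif proteins. Their members were taken as the protein-coding genes on chromosomes 1 to 22 of GENCODE release 44 (GRCh38) whose symbol is TRIM followed by a digit, which gave 77 of 19111 genes. Readthrough genes that carry the name, such as TRIM6-TRIM34 and TRIM39-RPP21, were kept as the annotation lists them. Chromatin accessibility near them was measured in HK1, an established line of human nasopharyngeal carcinoma cells, by ATAC-seq, an assay that uses a transposase to insert sequencing adapters where DNA is accessible. Cells were wild type (WT) or had the transcription factor gene FLI1 disrupted with a guide RNA (sgFLI1, FLI1-KO), and were either untreated or exposed to interferon-γ (IFN-γ) for 24 h per the study's methods. There were 4 groups of 1 library each: WT, WT-IFN-γ, sgFLI1, and then sgFLI1-IFN-γ, which is the order of all values given in sequence. Whether the knockout cells were a clone or a pool is not given in the sources used here. As no group had replicates, none of the differences could be tested against their spread.

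TRIM proteins typically join a RING domain, which confers ubiquitin ligase activity, to a B-box and a coiled coil, followed by a carboxy-terminal domain that picks the target. Several are induced by interferons and act in antiviral defence, either on the virus itself, as TRIM5 does on retroviral capsids, or on the sensors and adaptors that signal its presence. Others are chromatin co-regulators, cytoskeletal proteins of neurons, or proteins of muscle, and a further set arose by recent duplication in primates.

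The value given for a region is its summit pileup, the number of tags that overlap the summit of a listed peak. A level is that pileup divided by the library's tag density, which was 8.04, 8.84, 6.93 and 6.86 tags per kb, and ratios are between levels. WT-IFN-γ was thus the deepest library by this measure and had the longest list, with 67470 peaks. The others held 59629 (WT), 63203 (sgFLI1) and 59923 (sgFLI1-IFN-γ). Intervals are 95% and cover counting error only, because PCR tags without molecular identifiers are not independent molecules. A peak missing from a list lay below the authors' threshold and is called not listed, which does not mean that no tag was there. Of the epithelial markers, the promoters of KRT5, EPCAM and CDH1 were listed in all 4 libraries, whereas those of KRT14 and TP63 were in none. The promoters of PTPRC and CD3E (leukocytes) and of MYOD1 and ACTA1 (muscle) were not listed in any library.

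Sequences at summits on which the IFN-γ comparison turned are shown first, read from GRCh38 in the direction of the gene. They span up to 100 bp on either side of the summit in WT-IFN-γ, cut to the part outside annotated untranslated regions. Capitals mark matches to GAAANNGAA, the core bound by interferon regulatory factors (IRF), on either strand. The following pair of regions lay at starts listed in WT-IFN-γ and in no other library, and neither printed stretch held a match. Over whole peaks, one near TRIM31 that was listed in WT-IFN-γ and not in WT did hold a match.
TRIM31 (chr6:30113283-30113483, − strand): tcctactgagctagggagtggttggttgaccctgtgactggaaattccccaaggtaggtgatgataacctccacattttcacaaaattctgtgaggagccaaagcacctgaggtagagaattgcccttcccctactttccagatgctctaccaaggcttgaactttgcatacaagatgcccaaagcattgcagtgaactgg
TRIM40 (chr6:30135845-30136045, + strand): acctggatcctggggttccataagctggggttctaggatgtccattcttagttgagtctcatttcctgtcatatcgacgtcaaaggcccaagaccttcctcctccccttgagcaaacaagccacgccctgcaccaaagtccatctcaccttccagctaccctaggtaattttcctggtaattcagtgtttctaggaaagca

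The next pair belongs to promoters listed in all 4 libraries with the largest ratios after IFN-γ in WT cells. TRIM34 held 1 match, centred 85 bp before its start, and TRIM38 held none, although its window contained a TGANTCA match (the AP1 site).
TRIM34 (chr11:5624842-5625000, + strand): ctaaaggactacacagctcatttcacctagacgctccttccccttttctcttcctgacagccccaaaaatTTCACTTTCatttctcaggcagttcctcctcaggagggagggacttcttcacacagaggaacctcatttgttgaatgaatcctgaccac
TRIM38 (chr6:25962344-25962544, + strand): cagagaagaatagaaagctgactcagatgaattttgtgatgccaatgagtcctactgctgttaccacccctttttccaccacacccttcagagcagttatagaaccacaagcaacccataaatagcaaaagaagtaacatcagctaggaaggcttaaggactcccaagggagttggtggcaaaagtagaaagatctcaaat

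For TRIM21, TRIM5 and TRIM14, only the matches with 5 bases on each side are shown, as these lie next to or in untranslated sequence. TRIM21 carried 2 overlapping matches, centred 21 and 27 bp after its start, whereas the matches of TRIM5 and TRIM14 were centred 22 and 21 bp before theirs.
TRIM21 (chr11:4393666-4393690, − strand): gagcgGAAACTGAAAGTGAAatagg
TRIM5 (chr11:5685087-5685105, − strand): tatctTTCACTTTCctgcc
TRIM14 (chr9:98119234-98119252, − strand): gaggtTTCGGTTTCccttg

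Fewer TRIM genes than protein-coding genes in general lay near a listed peak. Within 10 kb of any annotated start, a peak was listed for 53 of the 77 members in WT (68.8%, Wilson interval 57.8 to 78.1%), and for 54 (70.1%), 56 (72.7%) and 55 (71.4%) in the other libraries. Over all protein-coding genes the shares were 82.9%, 84.1%, 83.5% and 82.7% in the same order. These members had 103, 117, 111 and 107 peaks. Merged over the lists they formed 144 regions, of which 11 lay near more than 1 member. All 4 lists held 84 of these regions (58.3%), against 43.9% of the 93211 regions of the genome. The latter include regions far from any start, so the sets are unlike and the gap is not particular to TRIM genes. Only 1 list held 31 of the members' regions, namely 3, 11, 9 and 8 by library. The 11 of WT-IFN-γ were 7.64% of the members' regions against 11.6% of all regions, which is the same unlike comparison.

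The members without a peak came mainly from the recent duplications. No region was listed in any library for 20 members, among them all 14 genes of the duplicated group: TRIM43, TRIM43B, TRIM48, TRIM49, TRIM49B, TRIM49C, TRIM49D1, TRIM49D2, TRIM51, TRIM51G, TRIM64, TRIM64B, TRIM64C and TRIM77. The other 6 were TRIM60, TRIM61, TRIM71, TRIM73, TRIM74 and TRIM75. TRIM71, an NHL-repeat protein known from stem cells and early embryos, was the exception in its group, since TRIM2, TRIM3 and TRIM32 had a promoter peak in every library. Reads from near-identical copies cannot be placed, and the authors had removed alignments of low mapping quality. Within 1 kb of the start, a median of 41.2% of the 64-base words in the 14 duplicated genes occurred more than once in the genome, with a range of 9.19 to 78.1%. TRIM73 and TRIM74 reached 90.3 and 90.4%, whereas TRIM60, TRIM61, TRIM71 and TRIM75 stood at 1.65, 0.258, 0 and 1.91%. Over the 57 members with a region the median was 0 and the highest share 32.8%. The part of read placement in the missing peaks was not tested.

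Position on the chromosomes also set the members apart from each other. Chromosome 11 held 23 of them, and chromosomes 1 and 6 held 9 each. Chaining starts less than 100 kb apart gave 9 clusters with 32 members. On chromosome 11 these included TRIM6, TRIM6-TRIM34, TRIM34, TRIM5 and TRIM22 within 93.2 kb, all with a region, and TRIM77, TRIM49, TRIM64B, TRIM49D1, TRIM49D2, TRIM64 and TRIM49C within 320.8 kb, with none. On chromosome 6, TRIM31, TRIM40, TRIM10, TRIM15 and TRIM26 lay within 100.3 kb, and all 5 had a region.

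A promoter region, defined as the merged region within 1 kb of a start with the largest summed pileup, was found for 52 members, and 43 of these were listed in all 4 libraries. The median promoter level of the members was 11.6 (46 listed), 10.7 (49), 11.4 (45) and 9.77 (48). The medians over all protein-coding genes were 12.1, 11.3, 12.1 and 10.9. The highest pileups in WT were at TRIM23 (200 tags), TRIM26 (195), TRIM37 (182), TRIM28 (180), TRIM66 (170) and TRIM39 (168). Their Poisson intervals overlapped throughout, from 173 to 230 tags for TRIM23 and from 144 to 195 for TRIM39, so that the order within these 6 was not resolved. At the other end stood TRIM34 with 18 tags, TRIM50 with 19, TRIM16 with 21, TRIM7 with 22, and TRIM6 and TRIM6-TRIM34 with 25 at the region they share. Neither was the order among these resolved, as the interval was 10.7 to 28.4 tags for TRIM34 and 16.2 to 36.9 for TRIM6.

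**Figure D1:**
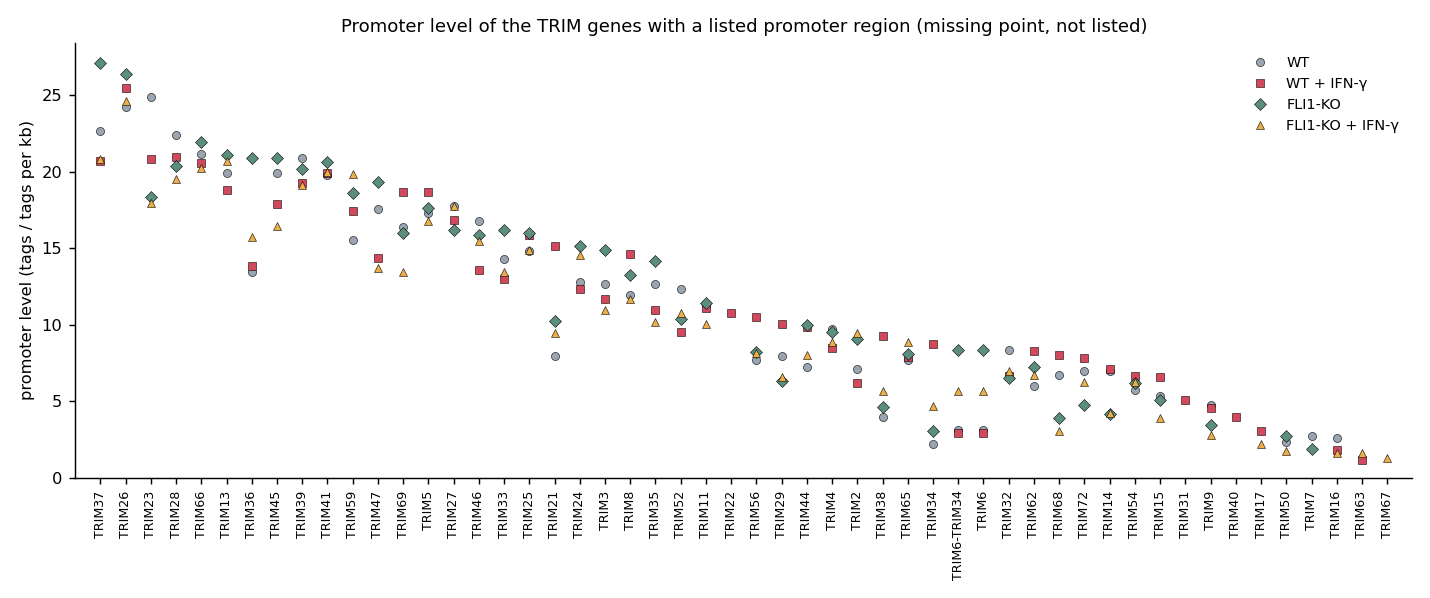
Promoter level (summit pileup divided by tags per kb) of the 52 TRIM genes with a promoter region, ordered by their highest level, with 1 point per library. Missing points are libraries in which the region was not listed; the spread between libraries at TRIM21, TRIM38 and TRIM34 exceeds that at most neighbours, and TRIM22, TRIM31 and TRIM40 have the WT-IFN-γ point alone.

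A group of 4 members is made of readers of chromatin, and its promoters were open in every library. TRIM28, the co-repressor recruited by KRAB zinc-finger proteins, had 180, 185, 141 and 134 tags. TRIM24, a bromodomain co-regulator of nuclear receptors, had 103, 109, 105 and 100 tags. TRIM33, known from TGF-β signalling, had 115, 115, 112 and 92. TRIM66, their close relative, had 170, 182, 152 and 139. None of these 4 promoters passed a 1.5-fold ratio in any comparison, and the ratio after IFN-γ in WT ran from 0.910 (0.697 to 1.19) at TRIM33 to 0.974 (0.786 to 1.21) at TRIM66. A region 6.4 kb before the start of TRIM33 had 34 and 33 tags in the WT libraries and 17 in sgFLI1, and was not listed in sgFLI1-IFN-γ.

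After IFN-γ, WT cells gained regions near TRIM genes at the rate of the genome. A gained region is a peak within 10 kb of a start that shares no base with a peak of the untreated list, and a lost region is the reverse. In WT, 21 members (27.3%) gained a region, against 26.9% of all genes, and 9 lost one, against 16.4%. With a −log10 q of at least 5, 14 members gained a region (background 14.5%) and TRIM22, TRIM50 and TRIM7 lost one (background 6.65%). The family as a whole therefore did not stand above the background. Of the 12 genes listed as linked to interferon, 9 gained a region and 1 lost one. That list was written with earlier results of these data known, so its counts and medians are descriptions.

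The clearest gain was at TRIM22, an antiviral ligase whose gene lies head to head with TRIM5. Its promoter region had 95 tags in WT-IFN-γ, with a Poisson interval of 76.9 to 116, and was not listed in WT, sgFLI1 or sgFLI1-IFN-γ. At the same level, 86.5, 74.5 and 73.7 tags would have lain there in those libraries, and 32, 27 and 27 would have been enough for listing. The TRIM5 promoter, 4.72 kb away, had 139, 165, 122 and 115 tags, and its ratio after IFN-γ was 1.08 (0.857 to 1.36) in WT. Open chromatin at the TRIM22 start was thus listed in 1 library only, beside a TRIM5 promoter that was high in all of them. Because the windows overlap, this single region also counted as the gain of TRIM5. Within the TRIM22 gene, a weak region 8.6 kb after the start had 15 tags in WT and 8 in sgFLI1 and was not listed with IFN-γ in either genotype.

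**Figure D2:**
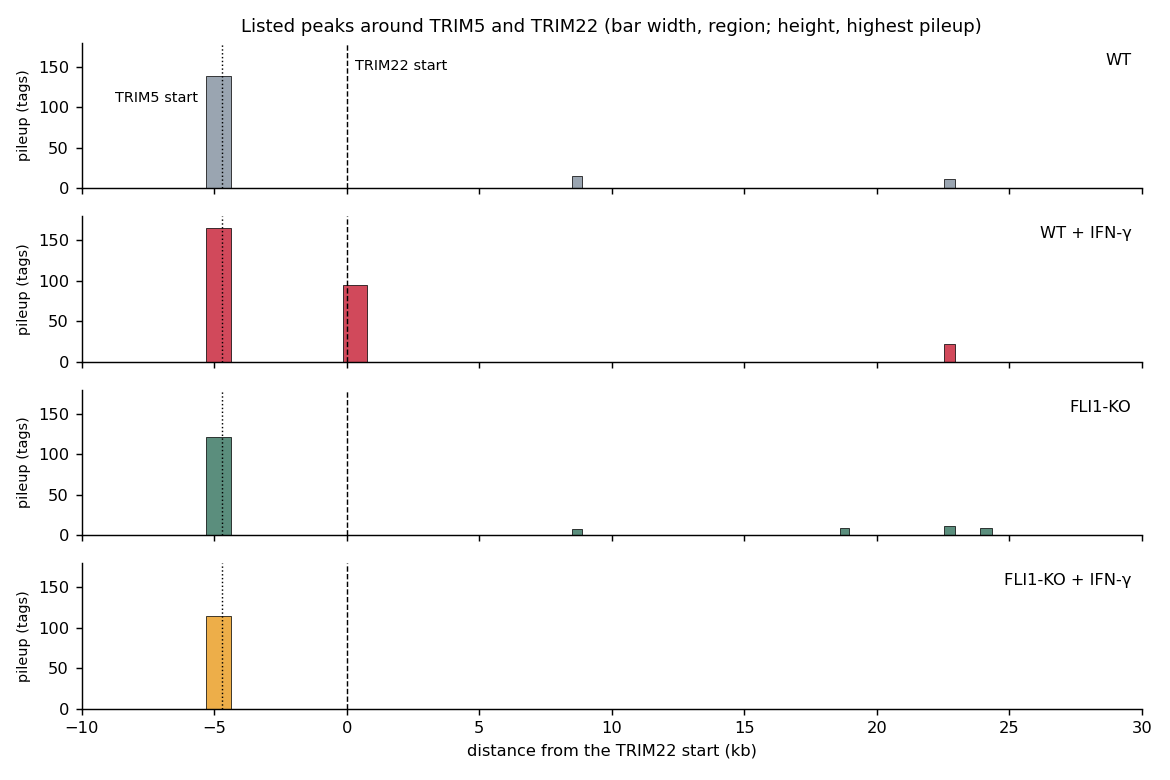
Listed regions around TRIM5 and TRIM22 in the 4 libraries, plotted by distance from the TRIM22 start in kb; bar width is the merged region and bar height its highest pileup in tags. The region at the TRIM22 start (95 tags) appears in WT-IFN-γ alone, and the TRIM5 promoter stays between 115 and 165 tags.

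A further 3 starts on chromosome 6 showed the same listing. TRIM31, which promotes assembly of the antiviral adaptor MAVS, had 45 tags in a region whose summit lay at −293 bp from its start, and was not listed in the other libraries, where 17, 15 and 14 tags would have sufficed. A second region 6.2 kb before the TRIM31 start had 21 tags, also in WT-IFN-γ alone. TRIM40, a ligase described mostly in the gut, had 35 tags with the summit at −195 bp. The start of TRIM15 had 34 tags, and as it lies 2.34 kb from that of TRIM10, a gene of the erythroid lineage, the same region counted for both. The promoter region of TRIM15 by summed pileup was a separate one, listed in all 4 libraries with 43, 58, 35 and 27 tags. Its ratio after IFN-γ in WT was 1.23 (0.813 to 1.87). In this cluster of 5 genes, 4 gained a region in WT (background 26.9%), and the fifth, TRIM26, kept its promoter at 195, 225, 183 and 169 tags. The chromosome 11 cluster of TRIM6 to TRIM22 also had 4 of 5 with a gain in WT. In FLI1-KO cells that cluster had 4 and this one 1 (background 17.9%). Regions shared by neighbours were counted for each gene.

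The remaining gains with a −log10 q of at least 5 in WT were mostly of regions listed in another library too. At TRIM17 the promoter region was listed with 27 tags in WT-IFN-γ and 15 in sgFLI1-IFN-γ and in neither untreated library. The regions behind the calls of TRIM6 (31 tags), TRIM38 (15), TRIM16 (53) and TRIM27 (88) were also listed in untreated sgFLI1, with 32, 17, 37 and 58 tags. At TRIM6, which shares its windows with TRIM6-TRIM34, a region at the canonical start had 22 tags in WT-IFN-γ and 15 in sgFLI1-IFN-γ and was in neither untreated list. TRIM69, a ligase with antiviral activity, had 51 tags in a region 7.9 kb from its nearest start in WT-IFN-γ and 12 in sgFLI1. TRIM9, a ligase of neurons, had 15 tags at an internal start in WT-IFN-γ alone. Among the losses, the promoter region of TRIM50 had 19 tags in both untreated libraries and 12 in sgFLI1-IFN-γ. That of TRIM7 had 22 tags in WT and 13 in sgFLI1, and a region inside TRIM22 is given above.

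Where a promoter was listed with and without IFN-γ, the ratio of levels was taken, with at least 40 tags in the pair. In WT, 3 of 43 members were higher past 1.5-fold (6.98%), against 1.25% of all genes, and 0 were lower past it, against 1.44%. These 3 were TRIM34, TRIM38 and TRIM21. TRIM34, a relative of TRIM5 and TRIM22 in the same cluster, had 18, 77, 21 and 32 tags. Its ratio was 3.89 (2.31 to 6.91) in WT and 1.54 (0.861 to 2.81) in FLI1-KO cells, so that the latter interval included 1. TRIM38, a regulator of innate signalling, had 32, 82, 32 and 39 tags, with ratios of 2.33 (1.53 to 3.63) and 1.23 (0.752 to 2.03). TRIM21, the cytosolic antibody receptor that marks antibody-bound viruses, had 64, 134, 71 and 65 tags, with ratios of 1.91 (1.40 to 2.61) and 0.925 (0.650 to 1.31). In each of the 3, WT-IFN-γ was the highest library by pileup and by level.

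**Figure D3:**
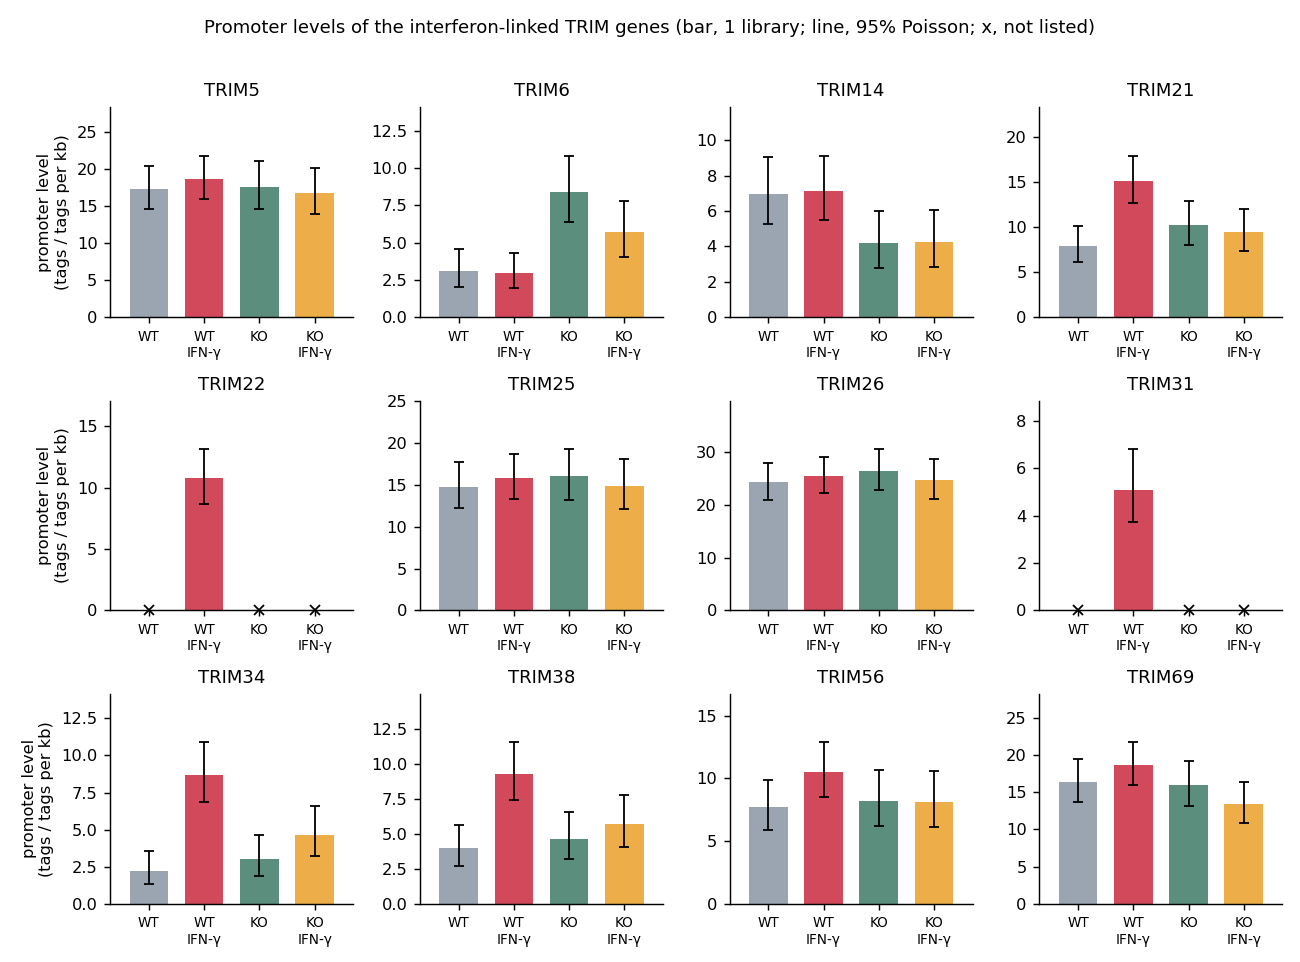
Promoter level of the 12 interferon-linked TRIM genes; each bar is 1 library, lines are 95% Poisson intervals, crosses mark libraries in which the region was not listed, and the vertical scale differs between genes. TRIM21, TRIM34 and TRIM38 are highest in WT-IFN-γ, TRIM22 and TRIM31 are listed there alone, and TRIM5, TRIM25 and TRIM26 differ little between libraries.

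Other members of the interferon-linked list differed less. TRIM56, which acts in antiviral signalling, had 62, 93, 57 and 56 tags and a WT ratio of 1.37 (0.979 to 1.91). It passed 1.5-fold only after division by the library background. TRIM25, the ligase of the RNA sensor RIG-I, had 119, 140, 111 and 102 tags and a ratio of 1.07 (0.833 to 1.38). A second TRIM25 region 1.9 kb before the start had 155, 176, 118 and 101 tags, and its summit lay within 100 bp of an IRF match in 3 of the 4 libraries. TRIM14, an adaptor of MAVS without a RING domain, had 56, 63, 29 and 29 tags and a ratio of 1.02 (0.703 to 1.49) in WT. The promoter of TRIM69 had 132, 165, 111 and 92 tags, with a ratio of 1.14 (0.899 to 1.44). Over the 10 promoters of the list that could be compared, the median log2 ratio was 0.15 in WT, where it was −0.03 over all members and −0.08 over all genes.

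In FLI1-KO cells, 16 members (20.8%) gained a region after IFN-γ, against 17.9% of all genes, and 14 (18.2%) lost one, against 23.1%. With a −log10 q of at least 5 only TRIM17 and TRIM2 gained one (background 6.89%), and TRIM2, TRIM33 and TRIM62 lost one (background 9.93%). These were weak regions, with 15 tags at TRIM17 and 12 at TRIM2 in sgFLI1-IFN-γ, and 13 at TRIM2, 17 at TRIM33 and 15 at TRIM62 in sgFLI1. TRIM34 was the only 1 of 43 members higher past 1.5-fold (background 0.309%), and 0 were lower (background 2.70%). The median log2 ratio was −0.10 over the members, −0.08 over the interferon-linked list and −0.16 over all genes, a shift against which single ratios in this comparison should be read. Relative to that median, TRIM21 stood at 0.05 and TRIM38 at 0.46 on the log2 scale. The comparison drew on the shallower pair of libraries.

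**Figure D4:**
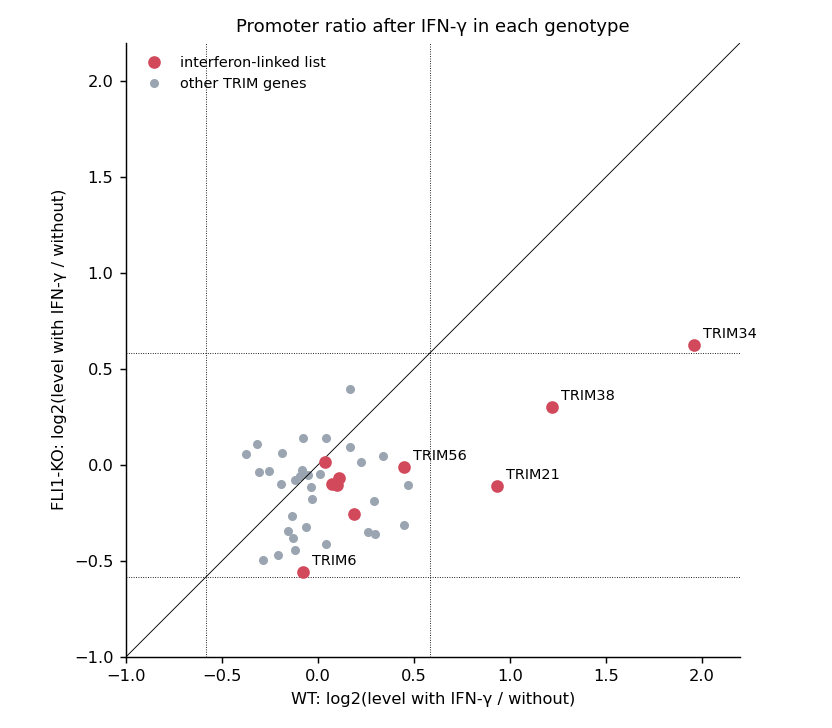
Log2 ratio of promoter level with and without IFN-γ in WT (horizontal) and FLI1-KO cells (vertical) for the 43 TRIM genes compared in both; dotted lines mark 1.5-fold and the solid line equal ratios. TRIM34 (1.96 and 0.62), TRIM38 (1.22 and 0.30) and TRIM21 (0.93 and −0.11) lie to the right of and below the solid line.

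Without IFN-γ, the shares of TRIM genes with a region gained or lost between FLI1-KO and WT cells had intervals that included those of all genes. Relative to WT, 16 members gained a region in sgFLI1 (20.8%, Wilson interval 13.2 to 31.1%), against 24.7% of all genes. A region was lost by 12 members (15.6%, 9.15 to 25.3%), against 21.1%. The members with no region in any list are counted in these shares. Of 42 promoters, 3 were higher past 1.5-fold (7.14%, background 3.23%) and 2 were lower (4.76%, background 3.84%). The 3 count the region shared by TRIM6 and TRIM6-TRIM34 for each of these genes. TRIM6, which makes unanchored ubiquitin chains in interferon signalling, had 25 and 26 tags in the WT libraries and 58 and 39 in the knockout ones, and TRIM6-TRIM34 shares this region. Its ratio was 2.69 (1.66 to 4.49) without and 1.93 (1.15 to 3.31) with IFN-γ, so that both knockout libraries lay above both WT ones. TRIM36, a microtubule-associated ligase, had 108, 122, 145 and 108 tags and a ratio of 1.56 (1.21 to 2.02), on a chromosome whose promoters had a median log2 ratio of 0.18, and relative to that median it stood at 0.46, under 1.5-fold.

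TRIM68 and TRIM14 were the lower pair, in both comparisons of genotypes. TRIM68, a co-activator of the androgen receptor, had 54, 71, 27 and 21 tags, with ratios of 0.580 (0.351 to 0.937) without and 0.381 (0.222 to 0.627) with IFN-γ. TRIM14 had ratios of 0.601 (0.370 to 0.957) and 0.593 (0.368 to 0.935). The promoters of chromosome 9, where TRIM14 lies, had median log2 ratios of −0.20 and −0.26, and after centring on them TRIM14 stood at −0.54 and −0.49. At that scale TRIM14 no longer passed 1.5-fold.

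With IFN-γ, more TRIM promoters were lower in FLI1-KO cells. In sgFLI1-IFN-γ relative to WT-IFN-γ, 8 of 44 promoters were lower past 1.5-fold (18.2%, background 5.14%) and 3 were higher (6.82%, background 2.31%). The 8 were TRIM14, TRIM15, TRIM21, TRIM29, TRIM34, TRIM38, TRIM68 and TRIM9, and the 3 were TRIM2, TRIM6 and TRIM6-TRIM34. As before, the region shared by TRIM6 and TRIM6-TRIM34 was counted for each gene. TRIM29 stood at a log2 ratio of −0.62 and fell short of 1.5-fold, at −0.56, when centred on all promoters or on those of its chromosome. TRIM14 also fell short on its chromosome, so that these centrings left 7 and 6 lower. TRIM2 stood at 0.61 and fell short, at 0.57, after division by the library background, which left 2 higher. TRIM21, TRIM34 and TRIM38, which were higher with IFN-γ in WT, stood at 0.625 (0.457 to 0.847), 0.535 (0.343 to 0.818) and 0.613 (0.407 to 0.908). This comparison shares libraries with both IFN-γ comparisons, so that a high value in WT-IFN-γ enters both. TRIM15 had a ratio of 0.600 (0.365 to 0.962), TRIM9 of 0.612 (0.335 to 1.08) and TRIM2, a ligase of neurofilaments, of 1.52 (1.05 to 2.22). The interval of TRIM9 included 1. Regions were gained by 14 members (18.2%, background 18.6%) and lost by 21 (27.3%, background 29.8%), which was again close to the genome. Over 10 promoters of the interferon-linked list the median log2 ratio was −0.42, with 4 lower and 1 higher past the fold, whereas it was 0.11 over 9 promoters without IFN-γ. TRIM34 was not compared without IFN-γ, where its pair had under 40 tags. The list was written with earlier results of these data known, so these medians are descriptions. All members had medians of −0.09 with and 0.08 without IFN-γ, and all genes −0.06 and 0.02.

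The groups tied to neurons and muscle were listed unevenly at their promoters. Of the muscle RING-finger genes, which act in sarcomere turnover, TRIM54 had 46, 59, 43 and 43 tags at its promoter region. TRIM63 had 10 tags in WT-IFN-γ and 11 in sgFLI1-IFN-γ only, close to the lowest pileup a list could hold, and TRIM55 had no promoter region. The COS-box proteins bind microtubules, and among them TRIM46 had 135, 120, 110 and 106 tags and TRIM9 had 38, 40, 24 and 19. TRIM67 was listed at its promoter in sgFLI1-IFN-γ alone, with 9 tags. Of the NHL-repeat genes, TRIM2 had 57, 55, 63 and 65 tags, TRIM3 had 102, 103, 103 and 75, and TRIM32 had 67, 59, 45 and 48. Across the muscle and NHL-repeat groups, 1 promoter passed 1.5-fold, that of TRIM2, higher between treated genotypes (background 2.31%). In the COS-box group, TRIM36 was higher past it between untreated genotypes (background 3.23%) and TRIM9 lower between treated ones (background 5.14%).

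TRIM29, a RING-less member expressed in squamous epithelium, had 7 regions, the most after the 8 of TRIM2. The region at its canonical start had 32 and 28 tags in the WT libraries, untreated and treated, and was not listed in either knockout library, where 27.6 and 27.3 tags would have corresponded to the WT level and 12 would have been listed. It is shown for the run of pyrimidines before the start, read at the WT summit, and held no IRF match.
TRIM29 (chr11:120138146-120138212, − strand): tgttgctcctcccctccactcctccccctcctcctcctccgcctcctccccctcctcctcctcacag
An internal start 9112 bp downstream, the promoter region by summed pileup, had 64, 89, 44 and 45 tags, with ratios between genotypes of 0.798 (0.531 to 1.19) without and 0.651 (0.445 to 0.942) with IFN-γ. Another region, 12899 bp downstream of the start, had 74, 73, 54 and 36 tags and contained AP1 matches. A region 16160 bp downstream had 62, 76, 37 and 31 tags. Both knockout libraries were below both WT libraries in pileup, or not listed, at these 4 regions, and the knockout libraries were also the shallower ones. The other 3 regions differed less evenly. The one 29684 bp downstream had 33, 43, 33 and 18 tags, and its level in sgFLI1, 4.76, was above that in untreated WT and below the 4.87 of treated WT. The upstream region listed in all 4 libraries had 24, 28, 22 and 20 tags, and its levels of 2.98, 3.17, 3.17 and 2.92 overlapped between genotypes. Another upstream region was listed in sgFLI1-IFN-γ alone, with 12 tags. The listed epithelial markers also differed between genotypes, in both directions. KRT5, a basal keratin, had 32, 32, 51 and 50 tags, with ratios of FLI1-KO to WT of 1.85 without and 2.01 with IFN-γ. EPCAM, an epithelial adhesion molecule, had 56, 66, 35 and 31 tags and ratios of 0.725 and 0.605, while CDH1 (E-cadherin) had ratios of 1.01 and 0.951. Their part in the TRIM29 values was not tested.

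**Figure D5:**
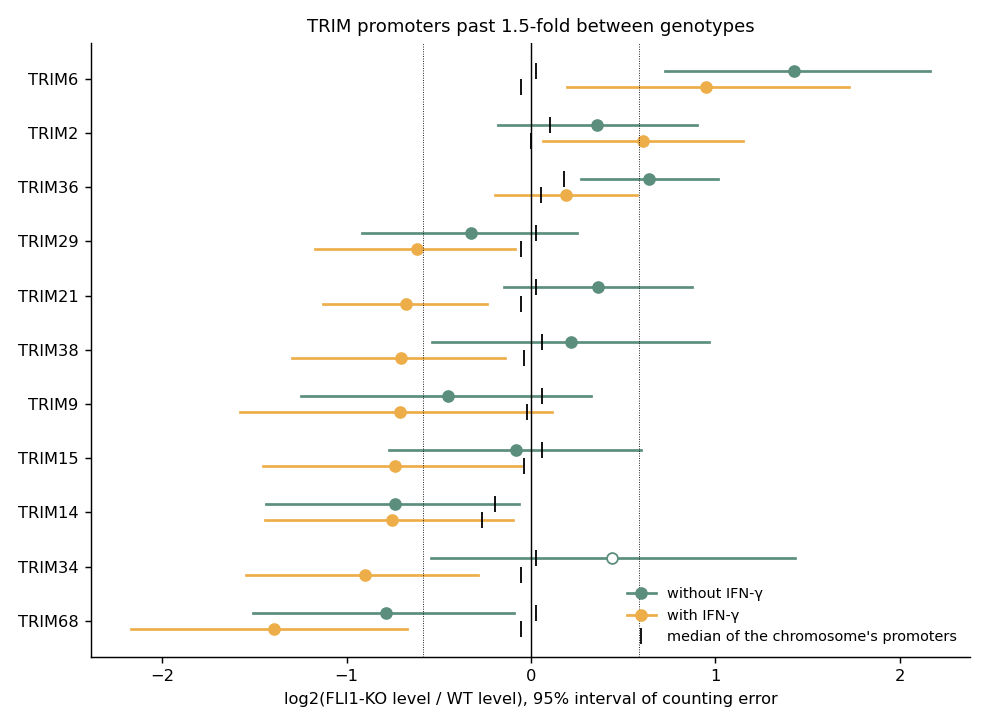
Log2 ratio of promoter level in FLI1-KO to WT cells for the TRIM genes past 1.5-fold (dotted lines) in either comparison; points are 1 pair of libraries, lines the 95% counting interval, and black ticks the median of all promoters on that chromosome, with an open point where the pair had under 40 tags. TRIM6 lies right of 0 and TRIM68 and TRIM14 left of it with and without IFN-γ, whereas TRIM21 and TRIM38 lie right without and left with IFN-γ.

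IRF matches were sought in the members' promoters, within 100 bp of the summit in the library with the highest pileup. They occurred in 7 of 51 distinct promoter regions (13.7%, Wilson interval 6.81 to 25.7%), against 553 of 12225 regions of all genes (4.52%). The 7 belonged to TRIM5, TRIM14, TRIM21, TRIM29, TRIM34, TRIM44 and TRIM69. The ETS core CCGGAAGT, bound by factors of the FLI1 family, was found in 2 (TRIM35 and TRIM44), against 5.39% of all, and TGANTCA in 5, against 6.62%. Matches near the summits of other libraries, such as ETS at TRIM41 and TRIM66 and IRF at TRIM16 and TRIM17, were not counted. Of the 7 promoters with an IRF match, TRIM21 and TRIM34 were higher past 1.5-fold after IFN-γ in WT, whereas TRIM5, TRIM14, TRIM29, TRIM44 and TRIM69 were not. TRIM44 passed it only after division by the library background. TRIM38 was higher past it without a match in this window. Among the 22 peaks gained in WT near members, 2 held a match (TRIM63 and TRIM9), against 16.9% of 16999 gained peaks in the genome. The latter lie at any distance from a start, so the sets are unlike. A match is a description of these letters and does not show that a factor was bound.

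Genes related by structure or function gave points of comparison outside the symbol rule. PML, a tripartite motif protein of nuclear bodies, had 84, 111, 75 and 66 tags and a WT ratio after IFN-γ of 1.20. MID1 and MID2, tripartite motif proteins of microtubules, had ratios of 0.959 and 0.834, and MEFV was not listed at its promoter. Of 4 genes of cytosolic RNA sensing, IFIH1, a sensor separate from RIG-I, had 58, 107, 55 and 39 tags, with a WT ratio of 1.68 and a ratio between genotypes under IFN-γ of 0.470. RIGI, the sensor on which TRIM25 acts, MAVS, the adaptor of both sensors, and RNF135, another ligase of RIG-I, had WT ratios of 1.10, 0.852 and 0.910, so that 1 of these 4 passed 1.5-fold in WT.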

How the data were processed

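ATAC-seq libraries of HK1 cells were compared by genotype and treatment, with 1 peak list per group. Per the study's methods and the submitters' processing notes, the authors trimmed reads (Trimmomatic 0.3), aligned them to GRCh38 (Bowtie2 2.3.4.1), removed low mapping qualities and duplicates (Picard), and called peaks with MACS2 2.1.2. Whether tag ends were shifted, and whether a list precedes the named reproducibility filter or pools replicates, is not given in the sources used here. The deposited columns hold, per peak, the authors' score, the ratio of pileup to local background (fold), and the −log10 of p and of q. The score was not used.

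Summit pileups were recovered as the whole number and background that satisfy both the fold, (pileup + 1) / (background + 1), and the Poisson −log10 p, which succeeded for 100% of peaks. The lowest background of a library (2.20, 2.20, 1.80 and 1.75 tags by library) divided by its shortest peak (274, 249, 259 and 255 bp), taken as tag length, gave the tag density. Pileups are thus tag counts, and the lowest one listed was 8 in both WT and 7 in both knockout libraries. Ratios have exact Clopper-Pearson intervals from the conditional binomial, pileups exact Poisson and shares Wilson intervals. Peaks sharing at least 1 bp were matched. Ratios needed 40 tags in a pair.

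No peak ended beyond a GRCh38 chromosome. Starts came from GENCODE release 44. Motif searches covered 100 bp around summits on either strand. The sequence of 1 region is not reported here. Named were members with a region gained or lost after IFN-γ at a −log10 q of at least 5, up to 8 per direction for each genotype comparison, the 6 highest and 6 lowest WT promoters, the interferon-linked and chromatin-reader lists, TRIM29, and members with no peak; others named were chosen after their values were seen. Members and lists were chosen with earlier results of these data known. The steps were tested on simulated data. Software was samtools 1.23.1, pysam 0.24.0, matplotlib 3.10.9, scipy 1.17.1, pandas 2.3.3 and numpy 2.4.6 under Python 3.11.15.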

Additional observations from a re-analysis of the deposited data

Results flagged for a closer look

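The number of peaks within 10 kb of a TRIM start moved in opposite directions after IFN-γ, with 14 more in WT-IFN-γ than in WT, whereas the knockout libraries differed by -4. Between genotypes it was 8 higher in sgFLI1 than in WT without IFN-γ and changed by -10 with it. At the TRIM21 promoter, the log2 ratio after IFN-γ was 0.93 in WT and -0.11 in FLI1-KO cells, and the latter became 0.05 when centred on all promoters. The log2 ratio of FLI1-KO to WT was 0.36 without and -0.68 with IFN-γ at TRIM21, and 0.21 and -0.71 at TRIM38. These differences were not tested, since each group held 1 library, and the counts of peaks followed the lengths of the lists, which held 59629 and 67470 peaks in WT cells, without and with IFN-γ, and 63203 and 59923 in FLI1-KO cells.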

How the results depend on the processing

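Of the alternatives to the main counts, 80 stayed within 1.5 times of them and 44 did not. The 60 recomputed promoter ratios were all of promoters past 1.5-fold, and none changed direction. The shifts applied were smaller than that fold, so this outcome was fixed in advance and says nothing of robustness. In the following, counts are of members gained and lost in the order WT-IFN-γ against WT, sgFLI1-IFN-γ against sgFLI1, sgFLI1 against WT and sgFLI1-IFN-γ against WT-IFN-γ. A window of 3 kb gave 12 and 5, 9 and 5, 6 and 5, and 7 and 10, and one of 50 kb gave 36 and 28, 36 and 28, 37 and 32, and 34 and 37. A −log10 q of at least 5 for the region left 3 lost in the first, 2 gained and 3 lost in the second, 7 and 5 in the third, and 3 gained in the fourth. In both lists it left 4 lost in the first, 3 gained and 7 lost in the second, 9 gained in the third and 4 gained in the fourth. Asking that 50% of a peak be covered raised the lost in the first to 14. With the canonical start alone, the lost were 9 in the second, 6 in the third and 13 in the fourth. Shares over all genes were not computed for the windows, both-list limit, coverage rule, canonical start or the promoter settings below. Those counts therefore cannot be set against the genome. Promoters past the fold in WT after IFN-γ rose from 3 to 6 when divided by the library background, with TRIM44, TRIM56 and TRIM62 added. A fold of 2 left 0 higher in FLI1-KO cells after IFN-γ, 0 lower between untreated genotypes, and 0 higher and 1 lower between treated ones. With no minimum of tags, 1 was lower in FLI1-KO cells after IFN-γ. Over the whole peak, members with an IRF match were 6 gained and 1 lost in the first comparison (all genes 6.91% and 2.06%), 4 and 1 in the second (2.62% and 3.01%), 1 and 2 in the third (3.43% and 3.50%), and 5 lost in the fourth (7.63%), of 77 members. The cause of these moves was not tested, apart from the width of the window and the stricter limits, which by construction add or remove peaks.

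No paired analysis was possible because each group held 1 library and no test was run. Low pileups limit the precision: TRIM34 had 18 tags in WT and TRIM63 at most 11 in any library, and a region not listed may still have been open below the threshold. Depth differed between libraries, so that the same region was easier to list in WT-IFN-γ.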
